A study of Mus musculus with 27 samples.

Results

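Guidance of axons and migrating cells in the fetal brain rests on a small number of ligand and receptor families, and 39 genes of these families were followed over fetal brain development. They are the rows of the gene read-count table whose symbol names an ephrin, an Eph receptor, a Slit, a Robo receptor, one of the netrins Ntn1, Ntn3, Ntn4 and Ntn5, draxin, Dcc or an Unc5 receptor. The rule reads the gene symbol and no measured value, and it matched 39 of 55416 rows. Of these 39, 5 encode ephrin-A ligands, 3 ephrin-B ligands, 9 EphA receptors, 5 EphB receptors, 3 Slits, 4 Robo receptors, 5 netrins or draxin, and 5 netrin receptors.

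Ephrins are ligands bound to the cell surface, the A class by a lipid anchor and the B class by a membrane span, and they signal through Eph receptor tyrosine kinases on the cell that is touched, mostly to repel it. Slits are secreted proteins that repel axons through Robo receptors, and Robo3 of commissural axons lets them approach and cross the midline. Netrins are secreted proteins that attract axons through Dcc and repel them through Unc5 receptors, and draxin binds both netrin 1 and Dcc.

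Poly(A) RNA of the whole brain of female fetuses was sequenced in 3 strains at 12, 15 and 17 days (d12, d15, d17) of gestation, the day of the vaginal plug being day 1, with 3 libraries for each strain and day. AKR/J is an inbred strain, C57BL/6J is an inbred strain with the intact Cav1 gene, and B6.Cg-Cav1tm1Mls/J, called Cav1-null below, is a congenic strain with a null allele of Cav1 on the C57BL/6J background, present in every tissue. Early phase refers to the change from d12 to d15 and late phase to that from d15 to d17, and the short-lived AKR/J and Cav1-null strains were each compared with the long-lived C57BL/6J. Whether fetuses of a group shared a litter is not given in the sources used here, so that p-values measure only the spread between these libraries.

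The 27 libraries held 26363697 to 39759702 reads on genes (median 29700746), and no 2 libraries of a group agreed within sampling noise. Values are given as CPM, read counts relative to library size after TMM scaling. Cav1 itself (chr6:17306140-17341451, GRCm39 as for all positions) was at 9.25 to 34.2 CPM in AKR/J, 10.3 to 39.9 in C57BL/6J and 0 to 0.509 in Cav1-null libraries. All 10 neuron markers had reads in every group, and their sum was lowest in AKR/J d12, at 2174 to 2645 CPM, against 4038 to 7309 in C57BL/6J d12. Markers of other tissues stood apart in some groups. The 13 erythroid markers in the table summed to 33259 to 197925 CPM in AKR/J d12 against 1943 to 4679 in C57BL/6J d12 and 4073 to 5351 in Cav1-null d12, and the 12 trophoblast and decidua markers to 90.8 to 1006 CPM in AKR/J d12, where Synb and Cts7 were at 0. The 10 connective tissue and cartilage markers summed to 539 to 5702 CPM in C57BL/6J d15. The 10 skeletal muscle markers summed to 9.39 to 107 CPM in AKR/J d15 and 12.4 to 72.3 in C57BL/6J d15, and the 8 epidermis and eye markers to 15.2 to 110 in AKR/J d15. Replicate 1 of C57BL/6J d17 held the highest level of its group in 35 of the 39 guidance genes, and replicate 2 the lowest in 25. Replicate 2 of C57BL/6J d12 was highest in 26 and replicate 3 of AKR/J d15 in 24.

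In the early phase, more guidance genes rose than fell in AKR/J and more fell than rose in Cav1-null brains. In the late phase, falls outnumbered rises in all 3 strains. In AKR/J, 14 of the 39 genes were differentially expressed (DE) from d12 to d15, 11 higher (14.8% of all genes tested) and 3 lower (14%), against 28.9% called either way. The log2 fold change had a median 0.22 against 0.022 over all genes. With library sizes alone as the scaling, which moved the median of all genes to 0.46, 11 were higher and 0 lower, and with the trend in GC content and length removed, 9 were higher and 7 lower. Over the same days of AKR/J the 13 erythroid markers went from 33259 to 197925 CPM to 2012 to 3070, the 10 neuron markers from 2174 to 2645 to 4688 to 7032, and the 10 radial glia and progenitor markers from 2996 to 5002 to 1749 to 2122, and their part in these changes was not tested. In the late phase of AKR/J, 19 of 39 were DE, 5 higher (11.6% of all genes) and 14 lower (10.4%), against 22.1% either way (median -0.35 against -0.0063). This count was 8 without AKR/J d17 replicate 2 and 9 without replicate 3, and with all 27 libraries in 1 model it was 11, all lower.

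In C57BL/6J, only Robo3 and Unc5d of the 39 genes passed the test in the early phase, 2 of 39 against 14.9% of all genes, 1 lower (7.8%) and 1 higher (7.08%) (median 0.15 against -0.038), with 15 at an unadjusted p under 0.05 (35.9% of all genes) and 12 called by DESeq2. No gene was called there when any 1 of the 3 d15 libraries was left out, and 1, 16 and 7 were called without d12 replicates 1, 2 and 3. In its late phase 13 of 38 were DE, 2 higher (7.46% of all genes) and 11 lower (5.58%), against 13% either way (median -0.72 against 0.029). This count was 0 without d15 replicate 2 or without d17 replicate 3, and 1 and 5 without d15 replicates 1 and 3. It was 11 without d17 replicate 2, and 29 without d17 replicate 1, 2 higher and 27 lower. Replicate 1 of d17 was the highest of its group in 35 of the 39 genes and replicate 2 the lowest in 25. Values given below without replicate 1 thus show the dependence on 1 end of a wide spread and replace no test. In Cav1-null brains, 20 of 38 were DE from d12 to d15, 6 higher (11.6% of all genes) and 14 lower (11.8%), against 23.4% either way (median -0.30 against -0.0094). This count was 12 without d15 replicate 2, 13 without d15 replicate 3 and 13 with all 27 libraries in 1 model. In their late phase 17 of 38 were DE, 6 higher (14.5% of all genes) and 11 lower (12.8%), against 27.3% either way (median -0.012 against -0.0037). With all 27 libraries in 1 model, 2 of these 17 kept their calls, Epha2 and Epha3. Of the early and late calls, 8 of 14 and 8 of 19 were kept with any 1 library left out in AKR/J, 0 of 2 and 0 of 13 in C57BL/6J, and 11 of 20 and 10 of 17 in Cav1-null. Ntn5, at most 1.07 CPM in any library, passed the filter on low counts in the comparisons that give 39 genes and not in those that give 38.

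**Figure D1:**
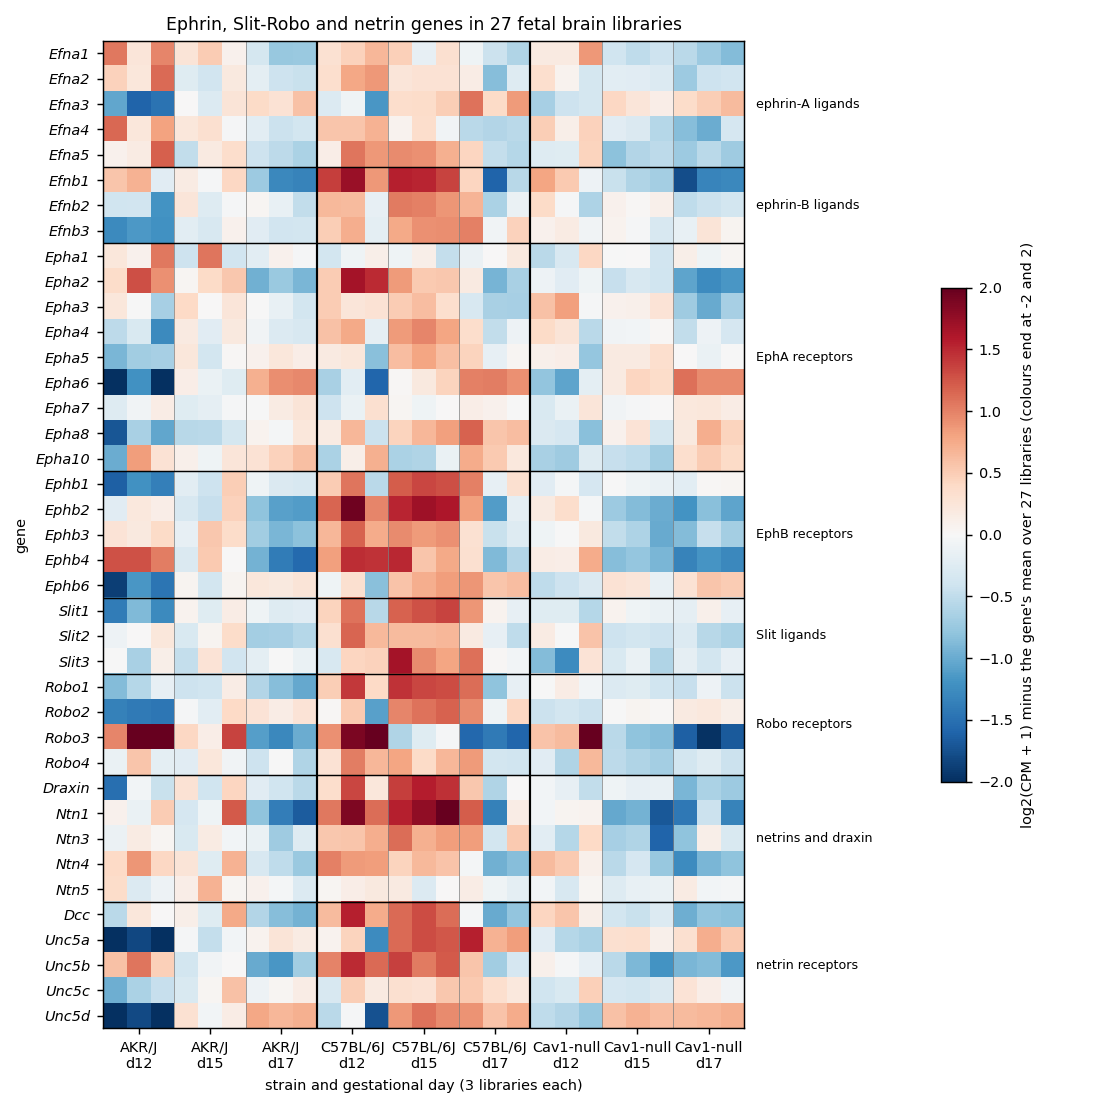
Level of each of the 39 genes (vertical axis, by family) in each of the 27 libraries (horizontal axis, by strain and day), as log2(CPM + 1) minus the mean of the gene over all libraries. Red is above and blue below that mean; Robo3 runs from red on d12 to blue on d17 in all 3 strains, and Unc5d and Epha6 from blue to red.

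Over the 6 comparisons of days, 14 of the 39 genes were called higher at least 1 time (35.9%) and 21 lower at least 1 time (53.8%), against 27.9% and 27.6% of the 21955 genes tested in at least 1 of these comparisons. Epha5 was called both ways, higher early in AKR/J and lower late in Cav1-null. The first call was lost without d12 replicate 1 or 3 or d15 replicate 1 or 3 (adjusted p = 0.0748 to 0.138), with a replicate block and with the trend in GC content and length removed (adjusted p = 0.0744). The second was lost without d15 replicate 3 or d17 replicate 2 or 3 (adjusted p = 0.0506 to 0.0649) and with all 27 libraries in 1 model (adjusted p = 0.606). Epha1, Ntn3, Ntn5, Robo4 and Slit3 were called in none, 12.8% of the 39 against 47.2% of all genes. Epha6 was called higher in 5 of the 6 comparisons and Unc5d in 4, and Robo3 was called lower in 5. Efnb1, Ephb4, Unc5b, Dcc and Ntn4 were each called lower in 4.

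**Figure D2:**
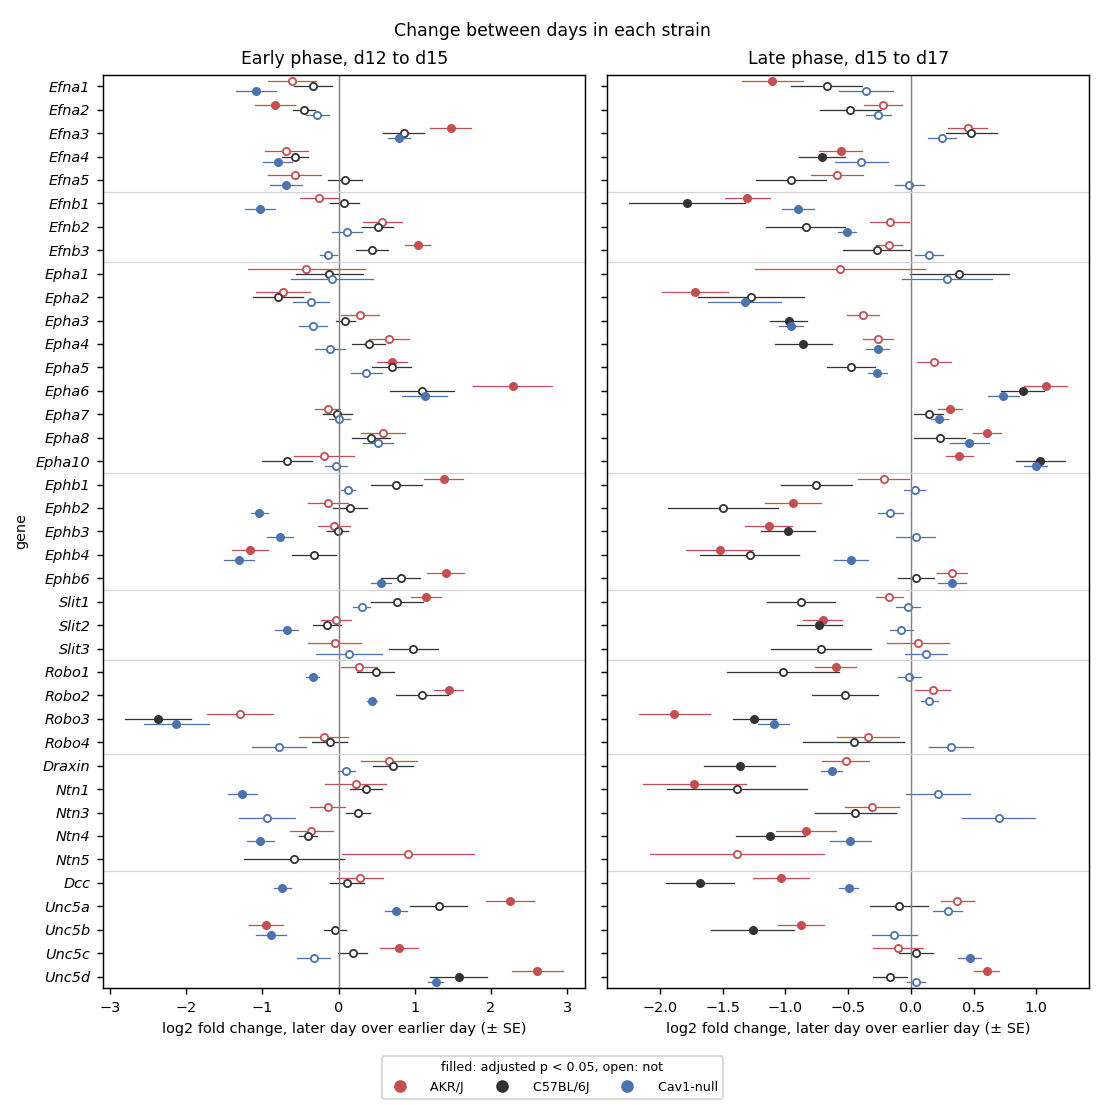
Log2 fold change (horizontal axis, later day over earlier day, bars ± 1 SE) of each gene (vertical axis) in the early phase on the left and the late phase on the right, with the strains in colour and filled points for an adjusted p under 0.05. Robo3 lies left of 0 in all 6 comparisons and Epha6 right of 0 in all 6, while most filled points of the late phase lie left of 0.

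Of the ephrin-A ligands, which are held to the membrane by a lipid anchor, Efna3 was called only higher between days and Efna1 and Efna4 only lower. Efna3 (chr3:89221203-89230272) was at 7.298, 4.61 and 5.13 CPM on d12, 16.1, 13.1 and 19.5 on d15 and 21.3, 19.8 and 24.7 on d17 in AKR/J. C57BL/6J libraries were at 13.1, 15.1 and 6.603 CPM on d12, 20.8, 20.9 and 23.05 on d15 and 35.4, 21.3 and 29.6 on d17. In Cav1-null it was at 9.75, 11.8 and 12.4 CPM on d12, 21.7, 19.2 and 17.8 on d15 and 21.1, 22.9 and 25.4 on d17. In each strain all d15 libraries lay above all d12 libraries. The rise was called in AKR/J (log2 fold change 1.47, SE 0.27, adjusted p = 0.0065) and in Cav1-null (log2 fold change 0.79, SE 0.15, adjusted p = 0.00621), and it did not pass the test in C57BL/6J. Gm15998, a long noncoding RNA gene on the opposite strand, shares 759 exon bases with Efna3, and the strand setting of the counting is not given in the sources used here.

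Efna1, a ligand first known from endothelial cells, had the lowest median level of the 8 ephrins. It was at 10.7, 5.69 and 10.2 CPM on d12, 5.75, 7.09 and 5.02 on d15 and 3.47, 2.35 and 2.404 on d17 in AKR/J, and at 5.41, 5.45 and 9.37 CPM on d12, 3.31, 3.001 and 3.25 on d15 and 2.91, 2.44 and 2.099 on d17 in Cav1-null. In AKR/J the d17 libraries lay below the d15 libraries (log2 fold change -1.10, SE 0.25, adjusted p = 0.0159), and in Cav1-null the d15 libraries lay below those of d12 (log2 fold change -1.08, SE 0.27, adjusted p = 0.0201). The first call was lost without AKR/J d17 replicate 2 or 3 (adjusted p = 0.0793 to 0.0831), and the second without any 1 of the 3 d15 libraries (adjusted p = 0.0712 to 0.0833). In C57BL/6J, where no call was made in Efna1, the libraries were at 6.03, 6.81 and 7.97 CPM on d12, 6.89, 4.04 and 6.101 on d15 and 4.34, 3.21 and 2.73 on d17. Of the other 3 ephrin-A genes, Efna4 was called lower in 3 comparisons, and Efna2 and Efna5 in 1 each, and every one of these calls was lost on leaving out certain single libraries. For Efna4 these were 5 of the 6 libraries of the late AKR/J fit (adjusted p = 0.0628 to 0.178), 5 of 6 late in C57BL/6J (adjusted p = 0.0633 to 0.166) and 3 of 6 early in Cav1-null (adjusted p = 0.0612 to 0.0743). For Efna2 they were 5 of 6 early in AKR/J (adjusted p = 0.0648 to 0.156), and for Efna5 the 3 d15 libraries of Cav1-null (adjusted p = 0.104 to 0.157). Without d12 replicate 3, Efna2 of AKR/J was at -0.52 (adjusted p = 0.152) and Efna5 of Cav1-null at -0.40 (adjusted p = 0.0191). Without a filter on low counts or with a replicate block, the late Efna4 calls of AKR/J and C57BL/6J were lost. That of AKR/J was also lost with all 27 libraries in 1 model and with the trend in GC content and length removed. Library sizes alone ended the calls of Efna4 in C57BL/6J, Efna2 and Efna5, and all 27 libraries in 1 model also that of Efna5.

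The ephrin-B ligands span the membrane and can signal back into the cell that carries them. Efnb1 (chrX:98179680-98205454), an X-linked gene needed for tissue boundaries, fell in the late phase of all 3 strains. It was at 78.4, 86.9 and 45.5 CPM on d12, 59.4, 52.2 and 71.5 on d15 and 31.7, 21.2 and 20.4 on d17 in AKR/J. The C57BL/6J values were 141, 178 and 97.6 CPM on d12, 159, 154 and 137 on d15 and 71.8, 16.9 and 35.7 on d17, and those of Cav1-null were 92.2, 76.5 and 49.5 CPM on d12, 38.8, 34.6 and 32.8 on d15 and 14.8, 20.7 and 21.1 on d17. In each strain every d17 library lay below every d15 library. The fall was called in AKR/J (log2 fold change -1.30, SE 0.18, adjusted p = 0.00242), in C57BL/6J (log2 fold change -1.79, SE 0.46, adjusted p = 0.0443) and in Cav1-null (log2 fold change -0.90, SE 0.13, adjusted p = 0.000187). In C57BL/6J it lost its call without any 1 of the d15 libraries or without d17 replicate 3 (adjusted p = 0.105 to 0.173). Cav1-null brains also showed a fall in the early phase, where all 3 d15 libraries lay below those of d12 (log2 fold change -1.03, SE 0.19, adjusted p = 0.00639). Of the other ligands of this class, Efnb3 was called higher early in AKR/J (1.04, or 0.66 (adjusted p = 0.0177) with the trend in GC content and length removed) and Efnb2 lower in the late phase of Cav1-null (-0.51).

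The 9 EphA receptors bind mainly ephrin-A ligands. In the late phase of AKR/J 4 of 9 were higher and 1 lower (11.6% and 10.4% of all genes), in C57BL/6J 2 were higher and 2 lower (7.46% and 5.58%), and in Cav1-null 4 were higher and 4 lower (14.5% and 12.8%). Epha6 (chr16:59473846-60425894), a receptor of the nervous system, had the lowest levels on d12 and the highest on d17. It was at 0.742, 2.11 and 0.559 CPM on d12, 6.88, 5.53 and 5.08 on d15 and 10.7, 12.8 and 12.96 on d17 in AKR/J. It was at 3.598, 5.23 and 1.397 CPM on d12, 6.35, 7.26 and 8.81 on d15 and 13.5, 13.6 and 12.6 on d17 in C57BL/6J and at 3.17, 2.48 and 5.32 CPM on d12, 7.15, 8.65 and 8.302 on d15 and 14.5, 12.8 and 12.8 on d17 in Cav1-null. No library of a later day overlapped with one of an earlier day in any strain. The rise was called early in AKR/J (log2 fold change 2.29, SE 0.52, adjusted p = 0.0139) and Cav1-null (log2 fold change 1.13, SE 0.29, adjusted p = 0.0246). It was called again in the late phase of AKR/J (log2 fold change 1.07, SE 0.17, adjusted p = 0.00456), C57BL/6J (log2 fold change 0.89, SE 0.17, adjusted p = 0.0203) and Cav1-null (log2 fold change 0.74, SE 0.13, adjusted p = 0.00075). Without AKR/J d15 replicate 1 the early call of AKR/J was lost (adjusted p = 0.0546), and the early call of Cav1-null was lost without d12 replicate 1 or 2 or any 1 of the d15 libraries (adjusted p = 0.0595 to 0.0908). The late call of C57BL/6J was lost without d15 replicate 1 or 2 or d17 replicate 3 (adjusted p = 0.0942 to 0.1). With all 27 libraries in 1 model the late calls were lost in all 3 strains (adjusted p = 0.0666 in AKR/J, 0.11 in C57BL/6J, 0.296 in Cav1-null).

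Epha10, whose kinase domain is held to be inactive, rose in the late phase of all 3 strains. Epha10 of C57BL/6J was at 25.3, 43.03 and 65.4 CPM on d12, 25.2, 25.8 and 35.8 on d15 and 66.6, 57.4 and 46.1 on d17, and the d15 and d17 libraries did not overlap (log2 fold change 1.03, SE 0.19, adjusted p = 0.0187). Without d15 replicate 1 or 2 or d17 replicate 3 the call was lost (adjusted p = 0.0613 to 0.0939), and with the trend in GC content and length removed the value was 1.55 (adjusted p = 0.00327). In Cav1-null it was at 24.9, 23.8 and 32.99 CPM on d12, 28.4, 27.6 and 23.96 on d15 and 50.1, 56.97 and 51.8 on d17 (log2 fold change 0.99, SE 0.092, adjusted p = 6.45e-06 for the late phase), and in AKR/J at 19.5, 71.7 and 48.7 CPM on d12, 42.6, 37.3 and 46.8 on d15 and 48.8, 54.6 and 60.4 on d17 (log2 fold change 0.39, SE 0.11, adjusted p = 0.0391). The AKR/J call was lost without d15 replicate 1 or 2 or d17 replicate 2 or 3 (adjusted p = 0.0709 to 0.144) and with all 27 libraries in 1 model (adjusted p = 0.52). The d12 and d17 libraries overlapped in AKR/J and C57BL/6J.

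Epha2, a receptor of epithelia and progenitors, was low and fell in the late phase. It was at 4.25, 9.02 and 6.65 CPM on d12, 3.17, 4.31 and 4.92 on d15 and 1.102, 1.45 and 1.17 on d17 in AKR/J. It was at 2.79, 2.48 and 2.86 CPM on d12, 1.95, 2.26 and 2.101 on d15 and 0.969, 0.712 and 0.827 on d17 in Cav1-null. The d17 libraries lay below those of d15 in both, and the fall was called in AKR/J (log2 fold change -1.72, SE 0.26, adjusted p = 0.00353) and Cav1-null (log2 fold change -1.32, SE 0.29, adjusted p = 0.00421). C57BL/6J libraries held 4.83, 11.9 and 10.5 CPM on d12, 6.37, 4.84 and 4.92 on d15 and 3.61, 1.14 and 1.61 on d17, where the d17 libraries also lay below those of d15 and the change did not pass the test (log2 fold change -1.28, SE 0.42, adjusted p = 0.0836), which without d17 replicate 1 was -1.91 (adjusted p = 0.00472). Of the remaining EphA receptors, Epha3 was called lower in the late phase of C57BL/6J and Cav1-null (-0.98 and -0.95), as was Epha4 (-0.86 and -0.26). Epha8 was called higher late in AKR/J and Cav1-null (0.61 and 0.46), as was Epha7 (0.31 and 0.23), whose calls were lost when the trend in GC content and length was removed (0.21 (adjusted p = 0.21) and 0.14 (adjusted p = 0.0937)). Except for Epha3 in Cav1-null and Epha8 in AKR/J, each of these calls was also lost when certain single libraries were left out. In the late phase of Cav1-null, Epha8 was at 0.30 (adjusted p = 0.152) without d15 replicate 3 and Epha4 at -0.17 (adjusted p = 0.163) without d17 replicate 1. The AKR/J calls of Epha7 and Epha8 were lost with all 27 libraries in 1 model (adjusted p = 0.246 and 0.171), as were the Cav1-null calls of Epha4, Epha7 and Epha8. With a replicate block, Epha4 of C57BL/6J and Epha7 of AKR/J and Cav1-null lost their calls. Epha4 of Cav1-null and Epha7 of AKR/J lost theirs with library sizes alone, and the latter also with RLE size factors and without a filter on low counts.

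The EphB receptors bind mainly ephrin-B ligands. With all libraries in the fits, Ephb2, Ephb3 and Ephb4 were called only lower between days, and Ephb1 and Ephb6, the latter with an inactive kinase, only higher. Without d17 replicate 1 of C57BL/6J, the late change of Ephb1 there was -1.13 (adjusted p = 0.00459). Ephb4 (chr5:137348274-137376931), known from veins, where it meets ephrin-B2 of arteries, was at 41.9, 42.1 and 35.1 CPM on d12, 13.6, 24.7 and 16.9 on d15 and 8.2, 5.75 and 5.04 on d17 in AKR/J. It was at 30.3, 48.3 and 47.2 CPM on d12, 49.6, 25.1 and 29.1 on d15 and 21.3, 8.63 and 10.9 on d17 in C57BL/6J and at 18.8, 18.5 and 28.9 CPM on d12, 8.86, 9.42 and 8.44 on d15 and 6.02, 6.81 and 6.27 on d17 in Cav1-null. In AKR/J and Cav1-null the libraries of the 3 days formed separate ranges in falling order. The early fall was called in AKR/J (log2 fold change -1.16, SE 0.24, adjusted p = 0.00939) and Cav1-null (log2 fold change -1.31, SE 0.20, adjusted p = 0.0025), and the late fall in AKR/J (log2 fold change -1.52, SE 0.27, adjusted p = 0.00604) and Cav1-null (log2 fold change -0.48, SE 0.13, adjusted p = 0.017). The early call of AKR/J was lost without d15 replicate 3 (adjusted p = 0.0515) and with library sizes alone (adjusted p = 0.151), and the late call of Cav1-null without d15 replicate 2 or d17 replicate 3 (adjusted p = 0.055 to 0.0771). The 8 blood vessel markers summed to 71.05 to 108 CPM in AKR/J d12, 105 to 129 in AKR/J d15 and 68.98 to 92.7 in AKR/J d17. In C57BL/6J they summed to 146 to 284 CPM on d12, 219 to 296 on d15 and 96.4 to 278 on d17. In Cav1-null they summed to 88.6 to 154 CPM on d12, 70.7 to 87.4 on d15 and 84.5 to 103 on d17. The part of these markers in the result was not tested.

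Ephb2, a receptor of commissural and callosal axons, fell in the early phase of Cav1-null, from 129, 146 and 111 CPM on d12 to 68.5, 61.6 and 56.6 on d15 (log2 fold change -1.04, SE 0.11, adjusted p = 0.00063). Its d17 libraries there were at 48.9, 63.1 and 54.1 CPM, and overlapped with those of d15. In AKR/J it was at 96.9, 132 and 124 CPM on d12, 91.1, 82.4 and 157 on d15 and 64.7, 53.3 and 51.7 on d17, with all d17 libraries under those of d15 (log2 fold change -0.94, SE 0.22, adjusted p = 0.0192). The late value of AKR/J was -0.61 (adjusted p = 0.0106) without d15 replicate 3, and its call was lost without d17 replicate 2 or 3 (adjusted p = 0.0876 to 0.0975) and with all 27 libraries in 1 model (adjusted p = 0.0585). Ephb2 of C57BL/6J was at 257, 439 and 224 CPM on d12, 328, 370.4 and 351 on d15 and 201, 51.6 and 100.4 on d17, again without overlap of d15 and d17, and the change did not pass the test (log2 fold change -1.50, SE 0.44, adjusted p = 0.0618). Without d17 replicate 1 of C57BL/6J it was -2.14 (adjusted p = 0.00335). Ephb3 fell in the late phase of AKR/J, from 18.1, 29.95 and 26.5 CPM to 12.2, 10.4 and 11.1 (log2 fold change -1.14, SE 0.19, adjusted p = 0.00487), with no overlap between the days.

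Ephb1, known from retinal axons that turn at the optic chiasm, rose early in AKR/J from 23.96, 32.5 and 28.96 CPM to 65.8, 56.9 and 108, with no overlap (log2 fold change 1.38, SE 0.26, adjusted p = 0.00673). Ephb6 rose over the same days from 10.8, 18.6 and 14.9 CPM to 44.1, 32.7 and 44.4, again with no overlap (log2 fold change 1.40, SE 0.24, adjusted p = 0.00509), and with the trend in GC content and length removed the value was 0.90 (adjusted p = 0.0148). It was also called higher in both phases of Cav1-null (0.55 and 0.33), calls that were lost without d12 replicate 1 or 2 or d15 replicate 1 or 2 in the early phase (adjusted p = 0.0539 to 0.0835) and without d15 replicate 2 or 3 or d17 replicate 2 or 3 in the late phase (adjusted p = 0.0608 to 0.167). The late value was 0.20 (adjusted p = 0.167) without d15 replicate 3 and 0.18 (adjusted p = 0.0762) with the trend in GC content and length removed, and its call was also lost with library sizes alone (adjusted p = 0.054) and with all 27 libraries in 1 model (adjusted p = 0.472). The early call was lost with all 27 libraries in 1 model (adjusted p = 0.0926) and with a replicate block (adjusted p = 0.0519). Ephb6 shares 1112 exon bases with Trpv6 on the opposite strand, so that reads of both genes may have been counted together.

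**Figure D3:**
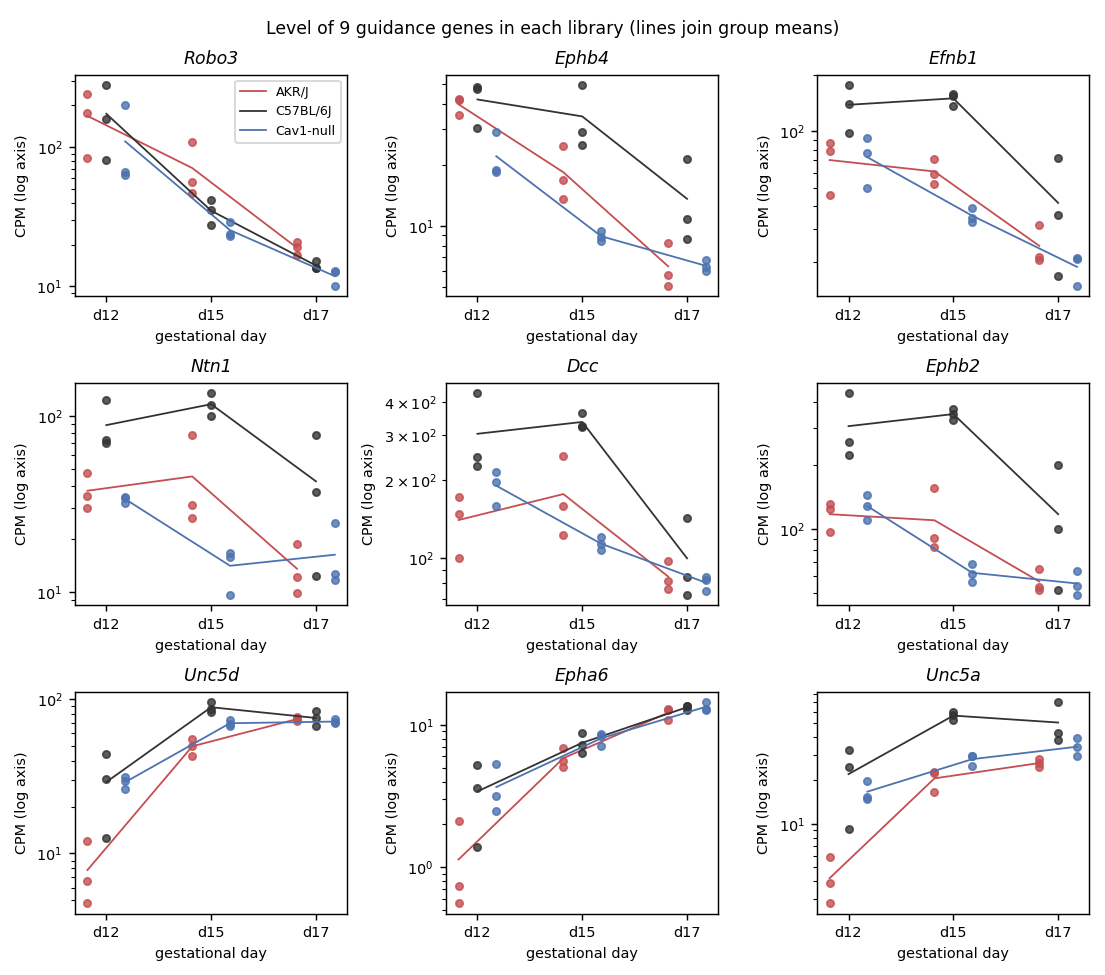
CPM of 9 of the genes (vertical axes, log scale) on d12, d15 and d17 (horizontal axes) in each library, in the colour of its strain, with lines through the group means. Robo3 and Ephb4 decline over the 3 days, Unc5d, Epha6 and Unc5a are higher on d15 than on d12, and C57BL/6J lies highest on d15 for Efnb1, Ntn1, Dcc and Ephb2.

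Of the Robo receptors, Robo3 (chr9:37326965-37344737), the receptor of commissural axons before they cross the midline, had the lowest log2 fold change of the 39 genes in the early phase of each strain and also late in AKR/J. It was at 84.03, 243 and 178 CPM on d12, 56.7, 46.6 and 109.5 on d15 and 19.2, 16.8 and 20.7 on d17 in AKR/J. It was at 80.5, 159.9 and 283 CPM on d12, 27.5, 35.7 and 41.9 on d15 and 13.6, 15.3 and 13.5 on d17 in C57BL/6J. It was at 63.2, 66.7 and 201 CPM on d12, 29.04, 23.9 and 23.1 on d15 and 12.9, 9.997 and 12.6 on d17 in Cav1-null. Every d17 library lay below every library of the earlier days of its strain. In the early phase the fall was called in C57BL/6J (log2 fold change -2.37, SE 0.43, adjusted p = 0.0232) and Cav1-null (log2 fold change -2.13, SE 0.42, adjusted p = 0.00818), and in AKR/J, where d12 and d15 overlapped, it was not (log2 fold change -1.30, SE 0.43, adjusted p = 0.055). In the late phase it was called in AKR/J (log2 fold change -1.89, SE 0.28, adjusted p = 0.00329), C57BL/6J (log2 fold change -1.25, SE 0.17, adjusted p = 0.00798) and Cav1-null (log2 fold change -1.09, SE 0.13, adjusted p = 3.75e-05). The early call of C57BL/6J was lost without any 1 of its d15 libraries (adjusted p = 0.0896 to 0.12) and that of Cav1-null without d15 replicate 3 (adjusted p = 0.0532). Without d12 replicate 3 of Cav1-null, which stood above the other 2, the early value was -1.35 (adjusted p = 6.54e-08). The late call of C57BL/6J was lost without d15 replicate 2 or d17 replicate 3 (adjusted p = 0.0502 to 0.058) and with the trend in GC content and length removed, at -0.80 (adjusted p = 0.055). The late call of Cav1-null was lost with all 27 libraries in 1 model (adjusted p = 0.176). In these whole brains, fewer commissural neurons and less Robo3 RNA in each of them cannot be told apart, and the same holds for every gene described here.

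Robo2, a receptor of Slit repulsion, rose early in AKR/J from 59.2, 56.3 and 55.3 CPM to 149, 131 and 201, with no overlap (log2 fold change 1.45, SE 0.19, adjusted p = 0.00219). It rose in Cav1-null too, from 113, 118 and 113 CPM to 151, 159 and 155 (log2 fold change 0.44, SE 0.072, adjusted p = 0.00357), which became 0.31 (adjusted p = 0.0508) with the trend in GC content and length removed and lost its call with all 27 libraries in 1 model (adjusted p = 0.293). In C57BL/6J it was at 154, 219 and 70.98 CPM on d12 and 301, 326 and 345 on d15, without overlap, and the change did not pass the test (log2 fold change 1.09, SE 0.34, adjusted p = 0.0659). Robo1 was called lower late in AKR/J (-0.60) and in the early phase of Cav1-null (-0.34), opposite to Robo2 in the latter. These Robo1 calls were lost without AKR/J d15 replicate 3 or d17 replicate 2 or 3 (adjusted p = 0.0608 to 0.136) and without Cav1-null d12 replicate 2 or any 1 of the d15 libraries (adjusted p = 0.0579 to 0.0913), and both with all 27 libraries in 1 model (adjusted p = 0.253 and 0.559). The AKR/J call of Robo1 was also lost with a replicate block. Robo4, the Robo of endothelial cells, was called in no comparison of days, but its late change in C57BL/6J was -1.11 (adjusted p = 0.00974) without d17 replicate 1. Of their ligands, Slit2 was called lower in 3 comparisons (-0.70 in the late phase of AKR/J, -0.73 in the late phase of C57BL/6J and -0.68 in the early phase of Cav1-null), and each of these calls was lost on leaving out certain single libraries (adjusted p = 0.0565 to 0.0809, 0.0541 to 0.129 and 0.0535 to 0.0625). Slit1, the Slit restricted mostly to the nervous system, was called higher in the early phase of AKR/J (1.14, or 0.59 (adjusted p = 0.0286) with the trend in GC content and length removed), and Slit3 was called in none. Without d17 replicate 1 the late change in C57BL/6J was -1.27 (adjusted p = 0.00137) for Slit1 and -1.25 (adjusted p = 0.0201) for Slit3.

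Of the netrin ligands, Ntn1 (chr11:68100190-68291662), the netrin of the floor plate and ventricular zone, fell in different phases. In AKR/J it was at 35.3, 30.04 and 47.6 CPM on d12, 26.2, 31.4 and 78.7 on d15 and 18.6, 12.1 and 9.85 on d17. In Cav1-null it was at 32.03, 34.4 and 34.8 CPM on d12, 15.9, 16.7 and 9.59 on d15 and 11.7, 24.5 and 12.6 on d17. The d17 libraries of AKR/J lay below those of d15 (log2 fold change -1.73, SE 0.41, adjusted p = 0.0204), and the d15 libraries of Cav1-null lay below those of d12 (log2 fold change -1.26, SE 0.19, adjusted p = 0.00261). The AKR/J value was -1.08 (adjusted p = 0.0226) without d15 replicate 3. The AKR/J call was lost without d17 replicate 2 or 3 (adjusted p = 0.0969 to 0.102) and the Cav1-null call with all 27 libraries in 1 model (adjusted p = 0.0772). In C57BL/6J it was at 70.3, 123 and 73.5 CPM on d12, 99.7, 116 and 135 on d15 and 78.5, 12.4 and 36.9 on d17, where d17 replicate 1 stood far above replicates 2 and 3 and the late change did not pass the test (log2 fold change -1.39, SE 0.56, adjusted p = 0.132). Without that library it was -2.18 (adjusted p = 0.0114).

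Ntn4, a netrin of basement membranes, was called lower in 4 comparisons. The late call of AKR/J (-0.84) was lost without any 1 of 5 of its 6 libraries (adjusted p = 0.0502 to 0.143) and with a replicate block (adjusted p = 0.0558). In C57BL/6J it was at 22.01, 25.7 and 24.3 CPM on d15 and 15.5, 7.71 and 8.43 on d17 (log2 fold change -1.12, SE 0.28, adjusted p = 0.0391), with no overlap. In Cav1-null it was at 25.2, 23.3 and 17.1 CPM on d12, 10.7, 12.4 and 8.98 on d15 and 6.12, 8.03 and 8.72 on d17, and both the early fall (log2 fold change -1.03, SE 0.18, adjusted p = 0.00453) and the late one (log2 fold change -0.48, SE 0.16, adjusted p = 0.0414) were called, the latter not without d15 replicate 1 or 2 or d17 replicate 1 or 2 (adjusted p = 0.0675 to 0.194). Draxin fell in the late phase of C57BL/6J from 228, 259 and 242 CPM to 126, 56.5 and 87.03 (log2 fold change -1.37, SE 0.28, adjusted p = 0.0244) and in that of Cav1-null from 81.8, 77 and 78.6 CPM to 45.5, 55.5 and 51.9 (log2 fold change -0.63, SE 0.084, adjusted p = 0.000114), with no overlap in either. In C57BL/6J, the calls of Ntn4 and Draxin were lost without any 1 of the d15 libraries or without d17 replicate 3 (adjusted p = 0.0536 to 0.159 and 0.0763 to 0.118), and that of Ntn4 also without d17 replicate 2. Ntn3 was called in no comparison of days.

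Of the 5 netrin receptors, Dcc, the receptor of attraction, and Unc5b, an Unc5 receptor also known from blood vessels, were called only lower between days. Unc5a, Unc5c and Unc5d, which mediate repulsion as Unc5b does, were called only higher with all libraries in the fits. Dcc was at 100.4, 173 and 149 CPM on d12, 159, 124 and 249 on d15 and 97.6, 81.5 and 76.3 on d17 in AKR/J. It was at 228, 434 and 246 CPM on d12, 323, 365 and 321 on d15 and 143, 72.3 and 84.7 on d17 in C57BL/6J and at 197, 216 and 159 CPM on d12, 113, 108 and 121 on d15 and 74.6, 84.5 and 82.6 on d17 in Cav1-null. Its d17 libraries lay below its d15 libraries in each strain, and the late fall was called in AKR/J (log2 fold change -1.04, SE 0.22, adjusted p = 0.0138), C57BL/6J (log2 fold change -1.68, SE 0.27, adjusted p = 0.0117) and Cav1-null (log2 fold change -0.50, SE 0.078, adjusted p = 0.000408). The early fall was called in Cav1-null alone (log2 fold change -0.74, SE 0.11, adjusted p = 0.0025), a call lost with all 27 libraries in 1 model (adjusted p = 0.0635), and Dcc passed no test of a difference in change between strains. The late call of C57BL/6J was lost without d15 replicate 1 or 2 or d17 replicate 3 (adjusted p = 0.0529 to 0.0804) and that of AKR/J without d17 replicate 2 or 3 (adjusted p = 0.0706 to 0.0781).

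Unc5b was at 43.99, 34.6 and 39.6 CPM on d15 and 24.6, 9.77 and 12.8 on d17 in C57BL/6J (log2 fold change -1.26, SE 0.33, adjusted p = 0.0461), without overlap, and this call was lost without any 1 of the libraries other than d17 replicate 1 (adjusted p = 0.0532 to 0.177). It was also lower in both phases of AKR/J (-0.96 and -0.87) and in the early phase of Cav1-null (-0.89). The early call of AKR/J was lost without d15 replicate 1 or 3 (adjusted p = 0.0517 to 0.0783) and with library sizes alone (adjusted p = 0.277), and was -1.54 (adjusted p = 0.000901) with the trend in GC content and length removed. The late call of AKR/J was lost without d17 replicate 2 (adjusted p = 0.0684) and the Cav1-null call without d12 replicate 1 or d15 replicate 2 (adjusted p = 0.0514 to 0.0599).

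Unc5d (chr8:29136745-29709664), known from cortical neurons on their way to the upper layers, rose most of all 39 genes in the early phase of AKR/J. It was at 4.74, 12.1 and 6.604 CPM on d12, 55.5, 43.03 and 49.9 on d15 and 76.8, 71.9 and 74.3 on d17 in AKR/J. It was at 30.5, 43.9 and 12.7 CPM on d12, 82.9, 96.3 and 86.9 on d15 and 84.3, 66.8 and 75.5 on d17 in C57BL/6J. It was at 31.3, 29.6 and 26.01 CPM on d12, 67.4, 72.9 and 69.2 on d15 and 69.7, 71.2 and 73.95 on d17 in Cav1-null. In each strain the d15 libraries lay above all d12 libraries, and in AKR/J those of d17 above those of d15. The early rise was called in AKR/J (log2 fold change 2.61, SE 0.34, adjusted p = 0.0021), C57BL/6J (log2 fold change 1.58, SE 0.37, adjusted p = 0.037) and Cav1-null (log2 fold change 1.27, SE 0.093, adjusted p = 0.000126), and the late rise in AKR/J (log2 fold change 0.60, SE 0.099, adjusted p = 0.00472). The C57BL/6J call was lost without d12 replicate 1 or any 1 of the d15 libraries (adjusted p = 0.093 to 0.138), and the late call of AKR/J with all 27 libraries in 1 model (adjusted p = 0.203).

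Unc5a (chr13:55096518-55153833) was at 3.88, 5.89 and 2.79 CPM on d12, 22.99, 16.5 and 22.5 on d15 and 24.8, 28.1 and 26.4 on d17 in AKR/J and at 19.9, 15.4 and 14.8 CPM on d12, 29.4, 29.7 and 25.1 on d15 and 29.4, 39.3 and 34.2 on d17 in Cav1-null, and the d12 and d15 libraries were apart in both strains. Its early rise was called in AKR/J (log2 fold change 2.25, SE 0.32, adjusted p = 0.00269) and Cav1-null (log2 fold change 0.75, SE 0.14, adjusted p = 0.00611), the latter not with all 27 libraries in 1 model (adjusted p = 0.107). In C57BL/6J it was at 24.7, 32.4 and 9.21 CPM on d12, 52.7, 59.4 and 57.1 on d15 and 70.5, 38.4 and 42.6 on d17, and no change was called. Without d17 replicate 1 its late change there was -0.42 (adjusted p = 0.0258). Unc5c was called higher early in AKR/J (0.79) and late in Cav1-null (0.47), and the first of these was 0.53 (adjusted p = 0.172) without d15 replicate 3 and was lost without any 1 of the d12 libraries or d15 replicate 2 or 3 (adjusted p = 0.0701 to 0.172), with RLE size factors (adjusted p = 0.0592) and with the trend in GC content and length removed, at 0.42 (adjusted p = 0.234).

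Genes that work beside these families were counted from lists of 18 co-receptors and further ligands and 29 cytoplasmic effectors in the table. The shares of all genes called higher and lower were 14.8% and 14% early in AKR/J, 7.08% and 7.8% in C57BL/6J and 11.6% and 11.8% in Cav1-null, and late 11.6% and 10.4%, 7.46% and 5.58%, and 14.5% and 12.8%. Of the 18, 9 rose and 1 fell in the early phase of AKR/J, 6 rose and 0 fell in C57BL/6J, and 4 rose and 4 fell in Cav1-null. Late, 2 rose and 2 fell in AKR/J, 1 rose and 4 fell in C57BL/6J, and 5 rose and 4 fell in Cav1-null. Ntng1, a membrane-bound netrin G, had the largest called change of this list early in AKR/J (log2 fold change 2.87), and Mcam, a cell adhesion molecule, late in AKR/J (-1.27) and C57BL/6J (-1.27). Of the 29 effectors, 13 rose and 1 fell in the early phase of AKR/J, 4 rose and 0 fell in C57BL/6J, and 4 rose and 6 fell in Cav1-null. Late, 5 rose and 4 fell in AKR/J, 0 rose and 2 fell in C57BL/6J, and 7 rose and 0 fell in Cav1-null. Ngef, the ephexin that links EphA receptors to RhoA, had the largest called change of the effectors early in Cav1-null (1.57), C57BL/6J (1.68) and AKR/J (2.17).

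Between strains, 24 of 39 guidance genes were called lower in AKR/J than in C57BL/6J on d15, and 33 of 38 in Cav1-null. With the trend in GC content and length removed, these counts were 15 and 26. The 3 C57BL/6J groups serve both contrasts, so that the AKR/J and Cav1-null results are not independent. On d12, 12 of 39 genes were lower and 0 higher in AKR/J, against 28.6% of all genes called either way, 14.1% called lower and 14.5% called higher, with a median -0.56 against 0.02 over all genes. The genes with the largest differences were Unc5a, at 3.88, 5.89 and 2.79 CPM in AKR/J and 24.7, 32.4 and 9.21 in C57BL/6J (log2 fold change -2.24, SE 0.48, adjusted p = 0.0144), and Ephb1, at 23.96, 32.5 and 28.96 and 109, 162 and 51.9 CPM (log2 fold change -1.77, SE 0.36, adjusted p = 0.0134). Next were Unc5d, at 4.74, 12.1 and 6.604 and 30.5, 43.9 and 12.7 CPM (log2 fold change -1.74, SE 0.48, adjusted p = 0.0306), and Slit1, at 27.6, 40.1 and 30.3 and 102, 159 and 50.3 CPM (log2 fold change -1.52, SE 0.37, adjusted p = 0.0208). Ranges of the strains were apart for all 4. Each of these calls was lost without AKR/J d12 replicate 1 or 3 or C57BL/6J d12 replicate 2 (adjusted p = 0.0561 to 0.0698 for Unc5a, 0.0528 to 0.0628 for Ephb1, 0.0775 to 0.124 for Unc5d and 0.0576 to 0.0845 for Slit1), those of Unc5d and Slit1 also without C57BL/6J d12 replicate 1. The count of called genes was 0 without C57BL/6J d12 replicate 2, 1 without AKR/J d12 replicate 1, 2 without AKR/J d12 replicate 3 and 5 without C57BL/6J d12 replicate 1. AKR/J d12 is also the group in which the erythroid, trophoblast and decidua markers given above were highest and the neuron markers lowest, and their part in these differences was not tested. With the trend in GC content and length removed, 3 of the 39 genes were called, and the log2 fold changes were -1.21 (adjusted p = 0.0565) for Unc5a, -1.55 (adjusted p = 0.0503) for Unc5d and -0.59 (adjusted p = 0.138) for Slit1.

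On d15, 26 of 39 genes were called in AKR/J, 24 lower (22.3% of all genes) and 2 higher (18.8%) than in C57BL/6J, against 41.1% either way (median -0.76 against 0.061). Ephb2 was at 91.1, 82.4 and 157 CPM in AKR/J and 328, 370.4 and 351 in C57BL/6J (log2 fold change -1.61, SE 0.22, adjusted p = 0.00116). Robo1, a main receptor of Slit proteins, was at 99.2, 100.4 and 147 and 364, 337 and 328 CPM (log2 fold change -1.51, SE 0.14, adjusted p = 0.000343). Unc5a was at 22.99, 16.5 and 22.5 and 52.7, 59.4 and 57.1 CPM (log2 fold change -1.38, SE 0.12, adjusted p = 0.000278). For all 3 genes, every AKR/J library lay below every C57BL/6J library. Slit3, the Slit least restricted to neurons, was at 5.497, 9.903 and 5.95 and 27.6, 16.4 and 14.5 CPM (log2 fold change -1.38, SE 0.33, adjusted p = 0.0127), also without overlap. The 2 genes called higher in AKR/J were Robo3 (log2 fold change 1.08, SE 0.30, adjusted p = 0.0253), at 56.7, 46.6 and 109.5 CPM against 27.5, 35.7 and 41.9, and Epha10 (log2 fold change 0.61, SE 0.15, adjusted p = 0.0133), at 42.6, 37.3 and 46.8 CPM against 25.2, 25.8 and 35.8. Without AKR/J d15 replicate 3, the highest of its group, Robo3 was at 0.62 (adjusted p = 0.0356). The Robo3 call was lost without any 1 of the C57BL/6J d15 libraries (adjusted p = 0.0504 to 0.0879) and the Epha10 call without AKR/J d15 replicate 1 or 3 or C57BL/6J d15 replicate 1 or 2 (adjusted p = 0.0507 to 0.073). Both were lost with all 27 libraries in 1 model (adjusted p = 0.0848 and 0.216). By family, 4 of 5 EphB receptors, 3 of 3 ephrin-B ligands, 3 of 3 Slits and 4 of 5 netrin receptors were lower, and of the 9 EphA receptors 3 were lower and 1 higher. Of the 26 calls, 17 were kept with any 1 library left out and 13 in all alternatives. The Slit2 call was lost without any 1 of 5 libraries (adjusted p = 0.0526 to 0.0789), that of Ephb3 without any 1 of the C57BL/6J libraries (adjusted p = 0.0611 to 0.0867), and that of Dcc without AKR/J replicate 1 or C57BL/6J replicate 2 (adjusted p = 0.0724 to 0.0855). With the trend in GC content and length removed, Slit2 (adjusted p = 0.265), Ephb3 (adjusted p = 0.989) and Dcc (adjusted p = 0.0918) also lost their calls.

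In Cav1-null brains of d15, 33 of 38 genes were lower and 0 higher than in C57BL/6J, against 58.6% of all genes called either way, 31.8% called lower and 26.8% called higher (median -0.99 against 0.034). Ntn1 showed the largest difference, at 15.9, 16.7 and 9.59 CPM in Cav1-null against 99.7, 116 and 135 in C57BL/6J (log2 fold change -3.02, SE 0.18, adjusted p = 2.92e-07). Ephb2 was at 68.5, 61.6 and 56.6 against 328, 370.4 and 351 CPM (log2 fold change -2.45, SE 0.079, adjusted p = 1.5e-08), and Unc5b at 10.98, 8.36 and 6.57 against 43.99, 34.6 and 39.6 CPM (log2 fold change -2.15, SE 0.17, adjusted p = 2.5e-06). Efnb1 was at 38.8, 34.6 and 32.8 against 159, 154 and 137 CPM (log2 fold change -2.04, SE 0.084, adjusted p = 3.58e-08). Cav1-null and C57BL/6J libraries were apart for all 4 genes. All 5 EphB receptors, 3 Slits, 4 Robo receptors, 3 ephrin-B ligands and 5 netrin receptors were called lower, as were 4 of 5 ephrin-A ligands and 5 of 9 EphA receptors. Epha1, Epha6, Epha7, Epha10 and Efna3 did not pass the test. Among the called genes, Robo3 (-0.42) lost its call without C57BL/6J d15 replicate 2 or 3 or Cav1-null d15 replicate 2 or 3 (adjusted p = 0.0749 to 0.113), with library sizes alone (adjusted p = 0.17), with all 27 libraries in 1 model (adjusted p = 0.418) and with a replicate block (adjusted p = 0.0601). Unc5d (-0.30) lost its call with library sizes alone (adjusted p = 0.109), with all 27 libraries in 1 model (adjusted p = 0.355) and with the trend in GC content and length removed (adjusted p = 0.286). Efna4 lost its call without C57BL/6J replicate 2 or Cav1-null replicate 2 or 3 (adjusted p = 0.0635 to 0.149) and with the trend in GC content and length removed (adjusted p = 0.19), Epha3 without replicate 2 of either strain (adjusted p = 0.055 to 0.0581), and both with library sizes alone (adjusted p = 0.14 and 0.215). With all 27 libraries in 1 model, the calls of Efna2, Efna4, Epha3, Epha5 and Epha8 were lost too (adjusted p = 0.0871, 0.0627, 0.201, 0.136 and 0.0601), and with the trend in GC content and length removed Efna2 was at -0.024 (adjusted p = 0.802). In all, 30 of the 33 calls were kept with any 1 library left out and 24 in all alternatives. Of the related lists, 14 of the 18 co-receptors and further ligands were lower and 0 higher, and of the 29 effectors 24 were lower and 3 higher, beside the 31.8% and 26.8% of all genes.

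These differences of d15 went along with properties of the transcripts. Over all genes, the median log2 difference between Cav1-null and C57BL/6J ran from 0.78 for genes under 40% GC to -0.61 for genes over 60% GC, and from 0.46 in the shortest of 4 equal groups of genes by length to -0.36 in the longest. Between AKR/J and C57BL/6J it ran from 0.57 to -0.43 and from 0.41 to -0.25. Such trends were not limited to d15. Between AKR/J and C57BL/6J on d12 the medians ran from 0.92 to -0.51 and from 0.66 to -0.39, and in the late phase of C57BL/6J from 0.51 to -0.18 and from 0.24 to -0.15. The guidance genes have a median GC content of 55.2% and a median length of 5008 bases, against 49.6% and 2951 bases over the genes tested. With these trends removed, an alternative chosen after seeing the data, 30 genes were called between Cav1-null and C57BL/6J on d15, 26 lower and 4 higher, and 17 between AKR/J and C57BL/6J, 15 lower and 2 higher. The 4 genes named for Cav1-null kept their calls, Ntn1 at -1.93 (adjusted p = 2.36e-06), Ephb2 at -1.41 (adjusted p = 3.54e-07), Unc5b at -1.08 (adjusted p = 6.6e-05) and Efnb1 at -1.38 (adjusted p = 2.72e-07). Unc5a, Epha8, Ephb6 and Robo3 turned from lower to higher, with 0.11 (adjusted p = 0.272), 0.45 (adjusted p = 0.00973), 0.36 (adjusted p = 0.00637) and 0.54 (adjusted p = 0.0104). Unc5a did not pass the test there and is not among the 4 genes called higher. In AKR/J, Ephb2 was then at -0.80 (adjusted p = 0.0398), Robo1 at -1.09 (adjusted p = 0.0043), Unc5a at -0.56 (adjusted p = 0.0325), Slit3 at -0.69 (adjusted p = 0.13), Robo3 at 1.76 (adjusted p = 0.00992) and Epha10 at 1.45 (adjusted p = 0.00233).

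Markers of other tissues also differed on d15. The 10 connective tissue and cartilage markers summed to 539 to 5702 CPM in C57BL/6J, 204 to 1437 in AKR/J and 125 to 206 in Cav1-null, and all had reads except Matn1, which was at 0 in Cav1-null. The 8 blood vessel markers summed to 219 to 296 CPM in C57BL/6J, 105 to 129 in AKR/J and 70.7 to 87.4 in Cav1-null, and the 10 neuron markers to 8479 to 9612, 4688 to 7032 and 6387 to 6465 CPM. The 10 radial glia and progenitor markers summed to 1935 to 2128, 1749 to 2122 and 1596 to 1689 CPM. Erythroid markers went the other way, the 13 in the table summing to 826 to 1068 CPM in C57BL/6J, 2012 to 3070 in AKR/J and 2910 to 3617 in Cav1-null. Several of the genes with large differences, Efnb1, Ephb4 and Unc5b among them, are also known from mesenchyme or blood vessels, and the part of these tissues in the strain differences was not tested.

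**Figure D4:**
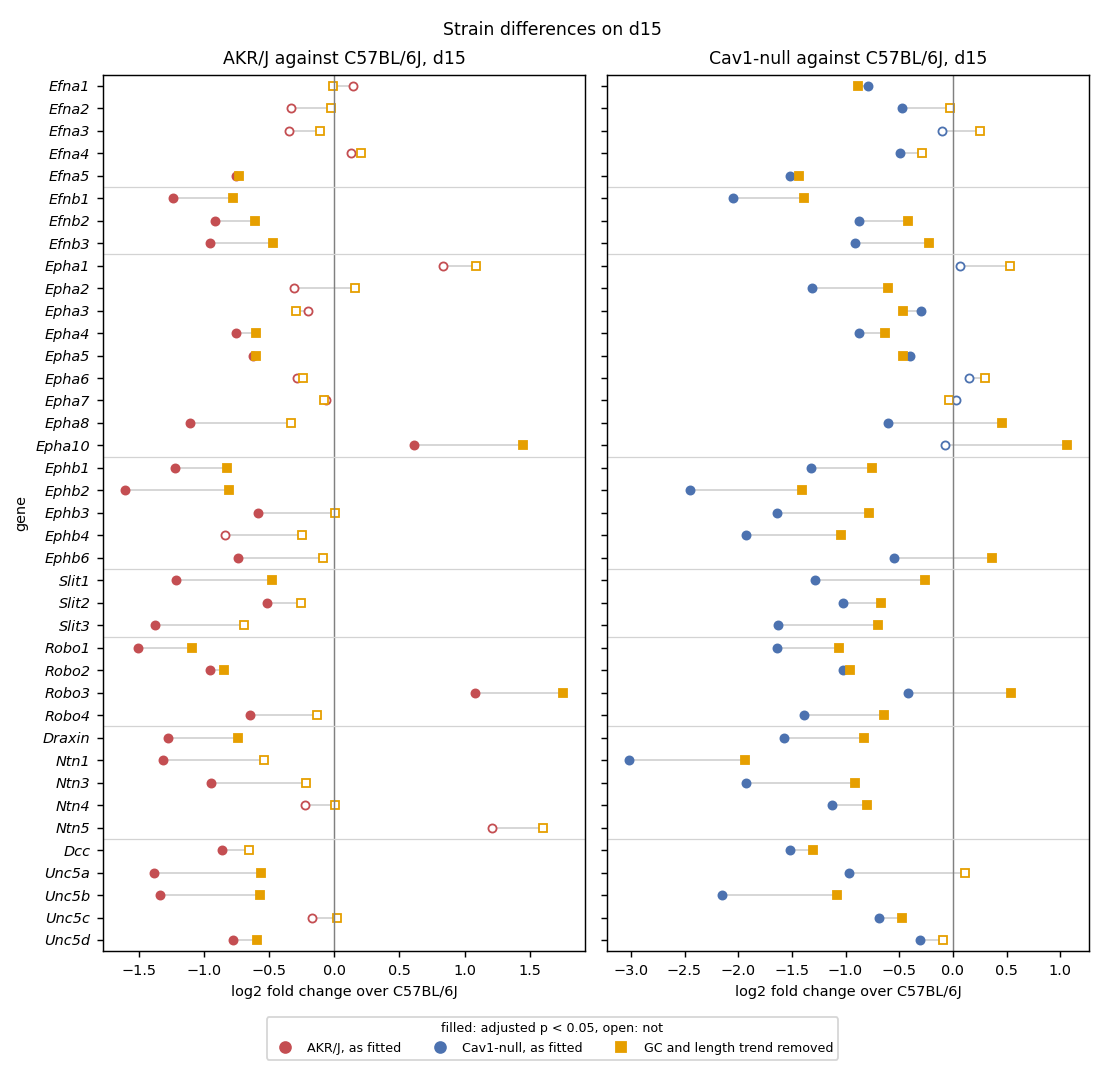
Log2 fold change on d15 (horizontal axes) of each gene (vertical axis) in AKR/J (left) and Cav1-null (right) against C57BL/6J, as circles from the test as reported and squares after removal of the trend in GC content and length, filled where the adjusted p was under 0.05. Most circles lie left of 0, and most squares lie nearer to 0 or beyond it, with Ntn1 of Cav1-null moving from -3.02 to -1.93.

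On d17, 0 of 38 genes were called by edgeR's quasi-likelihood test between AKR/J and C57BL/6J, against 0.742% of all genes. An unadjusted p under 0.05 was found for 15 of the 38 (21.2% of all genes), and DESeq2 called 5 (median -0.44 against -0.039). Without C57BL/6J d17 replicate 2, 16 were called. Between Cav1-null and C57BL/6J on d17, 0 of 38 were called, against 0.0491% of all genes, with 10 at an unadjusted p under 0.05 (7.55% of all genes) and 0 by DESeq2 (median -0.44 against -0.0024), and 12 were called without C57BL/6J d17 replicate 2. Between Cav1-null and C57BL/6J on d12, 0 of 39 were called, against 0% of all genes, with 15 at an unadjusted p under 0.05 (22.1% of all genes) and 9 by DESeq2 (median -0.62 against 0.016), and 11 were called without C57BL/6J d12 replicate 3.

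Whether a gene changed differently in 2 strains was tested by an interaction term over the 12 libraries concerned. None of the guidance genes passed edgeR's quasi-likelihood test. Between AKR/J and C57BL/6J, 0 were called for the early phase (0.0711% of all genes, 3 guidance genes and 16.3% of all genes at an unadjusted p under 0.05, 1 by DESeq2) and 0 for the late phase (0.00468%, 8 and 7.57% unadjusted, 1 by DESeq2). Between Cav1-null and C57BL/6J, 0 were called for the early phase (0.00472%, 13 and 15% unadjusted, 5 by DESeq2) and 0 for the late phase (0.252%, 13 and 21.9% unadjusted, 3 by DESeq2). Without C57BL/6J d17 replicate 1, the counts of the late phase were 9 for AKR/J and 24 for Cav1-null, and the early count for Cav1-null was 9 when C57BL/6J d12 replicate 2 was left out.

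Levels between genes were compared per length, as CPM per kilobase of the canonical transcript (mean ± SD, n = 3). In C57BL/6J d15, the highest was Efnb3, at 70.6 ± 4.61, followed by Efnb2 at 48.3 ± 2.64, Draxin at 46.7 ± 2.93 and Efnb1 at 45.3 ± 3.42, and the mean ± SD ranges of the last 3 overlapped. Among receptors of that group, Ephb1 (39.9 ± 1.72), Epha4 (37.7 ± 2.48), Robo1 (37.2 ± 1.996) and Robo2 (35.9 ± 2.42) came first, followed by Epha5 (32.9 ± 2.41) and Dcc (32.5 ± 2.401), whose mean ± SD ranges overlapped with that of Robo2. In Cav1-null d15 the highest was again Efnb3, at 36.4 ± 5.02, then Efnb2 at 25.7 ± 0.803 and Epha5 at 24.2 ± 1.51. On d12 Robo3 was among the highest in each strain, at 33.7 ± 15.98 in AKR/J, 34.9 ± 20.4 in C57BL/6J, 22.1 ± 15.7 in Cav1-null, and on d17 it was at 3.78 ± 0.4, 2.82 ± 0.199 and 2.37 ± 0.322. The lowest levels of C57BL/6J d15 were those of Ntn5 (0.13 ± 0.0963), Epha1 (0.277 ± 0.117) and Epha2 (1.37 ± 0.22).

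Junctions give a view of which forms of these transcripts were made. The splice table held 118 junctions of 26 of the guidance genes, and 92 junctions in 15 genes could be tested for a change in usage from d12 to d17 over the 3 strains. Of the 92, 2 were called, 1 in Ephb2 and 1 in Slit2, against 1.32% of 45171 junctions, and 10 had an unadjusted p under 0.05. No junction was called without replicate 1 or without replicate 2, 1 was called without replicate 3, and 0 were called within each strain alone. The sequences at these sites and at a splice choice in Epha7 are shown because they mark where the forms part. They were read from GRCm39 at positions of the GENCODE vM39 annotation, each 5′ to 3′ in the direction of the transcript, with exon bases in capitals and intron bases in lower case.
Epha7 short form: ttttttcatgttcagCTTTAGTAACAAATG
Epha7 canonical: cttacatcattacagTTAAATTTCCAGGCA
Epha7 12 bases shorter: cagttaaatttccagGCACCAAAACCTACA
Ephb2 canonical acceptor: ctctgtccccagcagGAGCTCAGTGAGTAC
Slit2 small exon: gccttccagATGAGGAAGAAGgcaagttaa

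The canonical Epha7 transcript encodes a receptor with a kinase domain, and an alternative exon leads to a truncated receptor without one. From the intron start at 28943379 on chromosome 4, reads joined 1 of 3 acceptors, all on the plus strand. The short form starts its exon at 28946219 (shown for chr4:28946204-28946233), the canonical form at 28947528 (chr4:28947513-28947542) and a form 12 bases shorter at 28947540 (chr4:28947525-28947554). Each intron shown ends in ag, and the canonical and shorter acceptors lie within the same stretch of bases. The short form took 6.25% to 23.3% of the reads at the 3 acceptors on d12 (median 18.4%, 9 libraries), 17.1% to 47.8% on d15 (median 26.7%) and 26% to 58.8% on d17 (median 44.9%). All 9 libraries of d17 lay above all 9 of d12, while d15 overlapped with both. Each library had 16 to 101 reads at these acceptors. The site was picked after its values were seen, so that this is a description with no test, and the test of junction usage over all junctions did not call it (adjusted p = 0.735). The gene level of Epha7 in C57BL/6J was at 72.6, 88.3 and 122 CPM on d12 and 106, 103 and 96.4 on d17, which overlap.

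**Figure D5:**
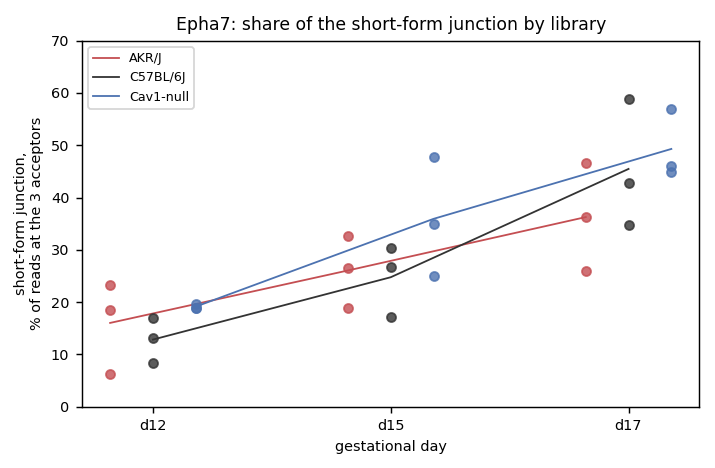
Share of the short-form junction among the reads at the 3 Epha7 acceptors (vertical axis, percent) in each library by gestational day (horizontal axis), in the colour of its strain, with lines through the group means. The d12 libraries lie at 6.25% to 23.3% and the d17 libraries at 26% to 58.8%.

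The called Ephb2 junction (chr4:136402842-136411230, minus strand) joins an exon to the canonical acceptor of the next, whose bases at chr4:136402827-136402856 are shown above. The annotation holds another acceptor 3 bases upstream of it and 1 that makes the exon 93 bases shorter. The junction had 0 reads in 20 of the 27 libraries, 13 in 1 AKR/J library of d12, 28 and 33 in 2 AKR/J libraries of d17, 21 and 51 in 2 of C57BL/6J d17 and 20 and 13 in 2 of Cav1-null d17 (adjusted p = 0.0154). Replicate 1 of d17 had 0 reads in all 3 strains. Its mean share of the junction reads of the gene was 1.11% on d12, 0% on d15 and 16.2% on d17. Junctions that failed the filters of the authors may be listed at 0, so that a 0 may stand for reads that were removed.

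The called Slit2 junction (chr5:48346935-48349534) passes over an exon of 12 bases at chr5:48348345-48348356, printed above with its flanks (chr5:48348336-48348365, plus strand). It had 20, 31 and 28 reads in the C57BL/6J libraries of d12, 24, 16 and 19 on d15 and 7, 1 and 3 on d17. In AKR/J it had 0, 9 and 5 reads on d12, 1, 11 and 6 on d15 and 0, 0 and 2 on d17. In Cav1-null it had 12, 4 and 23 reads on d12, 5, 3 and 4 on d15 and 0, 2 and 0 on d17. Counts were lower on d17 than on d12 in C57BL/6J and Cav1-null without overlap, and in AKR/J the days overlapped. The mean share of the junction reads of Slit2 was 2.66% on d12, 2.03% on d15 and 0.541% on d17 (adjusted p = 0.0332). Junctions into the exon of 12 bases were not in the table used here, so its inclusion was not measured.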

How the data were processed

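Whole fetal brains were sequenced as poly(A) libraries, 27 in all. Per the labels and the methods of the study, the authors aligned the reads to GRCm39 with STAR and deposited a table of raw read counts per gene and a table of read counts per splice junction, the latter without junctions supported by multi-mapped reads, short overhangs or few reads. The submitters' processing notes name FastQC, cutadapt, fastp, STAR, bedtools and edgeR. The counting tool, its strand setting and its handling of multi-mapped reads are not given in the sources used here.

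The 39 genes and all lists were chosen with earlier results of these data known. Counts were tested with edgeR 4.0.16 (R 4.3.3) by quasi-likelihood with TMM scaling and a filter on low counts, over the 6 libraries of each comparison of days or strains, or the 12 of an interaction. The p-values were adjusted by the Benjamini-Hochberg method over all genes tested, with a threshold of 0.05. The SE is the log2 fold change divided by the root of the F statistic. Depth ran from 26363697 to 39759702 reads. Junction usage from d12 to d17 was tested with diffSpliceDGE over the 27 libraries, with strain and day as terms. Given in full were genes called without overlap of the libraries, in comparisons of days up to the 8 largest with a log2 change of at least 1, in comparisons of strains up to the 4 largest, and any called in an interaction. From related lists the largest called change was named, and called junctions were named by the change in their share. Others were given by counts and ranges, and the Epha7 splice site was chosen after its values were seen. Alternatives were DESeq2 1.42.0, other scalings, no filter, all 27 libraries in 1 model, a replicate block, leaving out each library, and removal of the trend in GC content and length, the last added after seeing the data. The tests across genes were tested on simulated data. These had the same spread for every gene, with no outlying libraries and no trend in GC content or length. Such features of the real data were not covered.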

Additional observations from a re-analysis of the deposited data

How the results depend on the processing

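The replicate numbers do not pair the libraries: over 36 pairs of same-numbered libraries the correlation of deviations ran from -0.43 to 0.36, and 8 were above 0.1. With a replicate block, 0 genes were called in the early phase of C57BL/6J and 2 between AKR/J and C57BL/6J on d17, and the other counts stayed within 1.5 times. With all 27 libraries in 1 model, 11 genes were called late in AKR/J, 9 and 21 in the early and late phase of C57BL/6J, 13 and 2 in those of Cav1-null, 22 and 4 between AKR/J and C57BL/6J on d12 and d17, and 4 between Cav1-null and C57BL/6J on d12. DESeq2 called 12 and 21 in the early and late phase of C57BL/6J, 5 between AKR/J and C57BL/6J on d17, 9 between Cav1-null and C57BL/6J on d12, and 1, 1, 5 and 3 in the interactions (AKR/J early and late, Cav1-null early and late). Without a filter on low counts, 6 were called in the early phase of C57BL/6J, 4 between AKR/J and C57BL/6J on d17, 8 between Cav1-null and C57BL/6J on d12, and 1 and 8 in the early and late interaction of Cav1-null. With the trend in GC content and length removed, 5 were called in the early phase of C57BL/6J, and 3 and 17 between AKR/J and C57BL/6J on d12 and d15. The values of 5 genes then reversed on d15, Ephb3 of AKR/J to 0.0036 and Unc5a, Epha8, Ephb6 and Robo3 of Cav1-null to 0.11, 0.45, 0.36 and 0.54. The cause was not tested.

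Leaving out 1 library in turn, the early and late counts were 10 to 17 and 8 to 19 in AKR/J, 0 to 16 and 0 to 29 in C57BL/6J, and 12 to 24 and 12 to 17 in Cav1-null. Between AKR/J and C57BL/6J they were 0 to 17 on d12, 19 to 27 on d15 and 0 to 16 on d17, and between Cav1-null and C57BL/6J 0 to 11, 30 to 33 and 0 to 12. The interactions gave 0 to 0 and 0 to 9 for AKR/J and 0 to 9 and 0 to 24 for Cav1-null. Called junctions were 0 to 1 with a replicate left out and 0 in each strain alone. Over the 156 called results and 2028 alternative values, 1680 calls were kept, 343 were lost and 5 reversed. The Epha7 acceptors held 16 to 101 reads, which limits the precision of their shares.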
